A study of Mus musculus with 9 samples.

Results

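Far intergenic non-methylated islands (NMIs) are the NMIs of C127 cells that touch no annotated gene and lie more than 10 kb from the 5′ end of every annotated transcript of GENCODE release M21, whatever the type of gene. Of the 13491 NMIs in the list, 896 on chromosomes 1 to 19 and X met this rule (6.64% of the NMIs), and they held 368 kb, or 2.59%, of all NMI bases. C127 is an untreated mouse mammary epithelial line, and the list came from 1 BioCAP library, in which DNA is captured on the CXXC domain of KDM2B. The same series holds libraries of open chromatin, of RNA labelled with 4-thiouridine and of inputs, which were not analysed here. With 1 library there were no replicates, each NMI is only a start and an end with no height, and the read depth was unknown. All comparisons are therefore descriptions without a test, and intervals cover counting error only. A list of positions holds no expression values, so that the identity of the cells could not be checked from it.

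Most CpG sites of the mouse genome are methylated, and over generations methylated CpG is lost to TpG, so that the genome holds fewer CpG than its base composition would give. NMIs are the exception: they usually cover the CpG islands of promoters, where proteins with a CXXC domain bind CpG that lacks methylation. Away from promoters, short stretches of low methylation are known at enhancers and at sites bound by the insulator protein CTCF, and genes for tRNA, which RNA polymerase III reads from promoter boxes inside the gene, can carry an unmethylated island of their own.

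Sequences of selected members show what the rule brought together. They are given 5′ to 3′ on the plus strand of mm10 unless stated, in lower case, with each CpG in capitals. The member with the most CpG per base, chr9:32032038-32033176, is shown as the dense extreme, and its central 300 bp held 60 CpG:
Arhgap32 upstream, chr9:32032457-32032756: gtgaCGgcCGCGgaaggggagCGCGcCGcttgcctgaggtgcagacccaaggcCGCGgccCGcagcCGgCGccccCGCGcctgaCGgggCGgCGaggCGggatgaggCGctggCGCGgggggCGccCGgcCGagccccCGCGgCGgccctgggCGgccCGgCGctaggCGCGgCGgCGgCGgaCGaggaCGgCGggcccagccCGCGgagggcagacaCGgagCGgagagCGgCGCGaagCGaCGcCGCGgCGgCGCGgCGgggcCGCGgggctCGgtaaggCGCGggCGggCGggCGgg
A stretch of the same length 5 kb to the left of this member held 0 CpG:
left flank, chr9:32026738-32027037: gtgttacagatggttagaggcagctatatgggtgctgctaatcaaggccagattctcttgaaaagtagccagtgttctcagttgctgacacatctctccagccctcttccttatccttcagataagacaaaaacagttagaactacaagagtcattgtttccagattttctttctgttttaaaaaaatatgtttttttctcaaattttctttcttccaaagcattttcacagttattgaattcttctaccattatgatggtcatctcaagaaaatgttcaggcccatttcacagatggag
The member near Klrb1c also has a high observed/expected CpG ratio (1.05) but overlaps no RefSeq gene, and its central 300 bp is shown for comparison:
Klrb1c region, chr6:128760304-128760603: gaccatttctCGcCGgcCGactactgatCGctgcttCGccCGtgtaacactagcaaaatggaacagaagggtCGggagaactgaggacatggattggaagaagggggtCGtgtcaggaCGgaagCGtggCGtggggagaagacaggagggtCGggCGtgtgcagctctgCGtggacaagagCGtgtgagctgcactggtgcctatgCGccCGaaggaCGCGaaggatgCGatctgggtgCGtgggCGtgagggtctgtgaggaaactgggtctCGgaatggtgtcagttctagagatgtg
The highest ratio of observed to expected CpG among members of at least 300 bp, 1.09, belonged to the member near Ghr, the growth hormone receptor gene. All but 1 of its 14 CpG lie in a simple tandem repeat of 14 copies of a 5 bp unit:
Ghr region, chr15:3618819-3619118: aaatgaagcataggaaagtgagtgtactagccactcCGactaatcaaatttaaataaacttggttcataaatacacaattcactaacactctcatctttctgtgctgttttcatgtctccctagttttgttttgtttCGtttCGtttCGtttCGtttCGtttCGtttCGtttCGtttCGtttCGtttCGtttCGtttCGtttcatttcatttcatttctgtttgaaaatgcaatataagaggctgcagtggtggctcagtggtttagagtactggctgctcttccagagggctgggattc
The member near Itga8, second by this ratio, has a shorter array of 18 bp, 6 copies of a 3 bp unit, among its 17 CpG:
Itga8 region, chr2:12002074-12002373: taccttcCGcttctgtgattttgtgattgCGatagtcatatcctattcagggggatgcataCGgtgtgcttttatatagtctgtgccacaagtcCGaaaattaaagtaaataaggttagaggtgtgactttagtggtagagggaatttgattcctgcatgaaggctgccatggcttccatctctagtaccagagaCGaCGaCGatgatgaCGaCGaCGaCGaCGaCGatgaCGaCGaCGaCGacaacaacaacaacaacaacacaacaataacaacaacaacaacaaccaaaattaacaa
The member farthest from any GENCODE TSS, chr8:90000678-90001085 downstream of Tox3, lay 333374 bp from the nearest one:
Tox3 region, chr8:90000732-90001031: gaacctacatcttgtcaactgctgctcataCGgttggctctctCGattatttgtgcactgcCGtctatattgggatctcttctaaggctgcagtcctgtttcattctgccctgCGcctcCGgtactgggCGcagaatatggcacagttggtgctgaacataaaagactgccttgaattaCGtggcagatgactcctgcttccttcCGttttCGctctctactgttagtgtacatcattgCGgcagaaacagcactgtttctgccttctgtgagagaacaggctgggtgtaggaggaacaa
Many members are far poorer. The whole of the third member inside the 10 kb limit, 143 bp, held 2 CpG:
Xxylt1 region, chr16:30899194-30899336: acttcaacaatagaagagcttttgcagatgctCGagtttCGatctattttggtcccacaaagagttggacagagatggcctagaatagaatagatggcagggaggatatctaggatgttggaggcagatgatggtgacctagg

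The widest member, chr3:96499419-96502800, covers 4 tRNA genes that RefSeq places on the minus strand. The glycine, histidine and lysine genes are shown on their own strand, with the match to the B box, an inner promoter box of tRNA genes (GGTTCGANT), in capitals; the lysine gene has no match to these letters:
n-TGtcc7 (glycine), chr3:96501009-96501080: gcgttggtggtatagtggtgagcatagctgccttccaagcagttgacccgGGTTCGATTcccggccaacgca
n-THgtg8 (histidine), chr3:96500366-96500437: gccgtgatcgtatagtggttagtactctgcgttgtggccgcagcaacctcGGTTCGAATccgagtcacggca
n-TKctt16 (lysine), chr3:96499512-96499584: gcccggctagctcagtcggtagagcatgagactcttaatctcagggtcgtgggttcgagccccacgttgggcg
A further set carries the consensus of CTCF, shown in capitals within 40 bp of the member. The first lies in the wide member near Tex44, the second in that near Fbln2 and the third in a member near Vps13c:
Tex44 region, chr1:86440658-86440697: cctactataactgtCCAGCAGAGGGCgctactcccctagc
Fbln2 region, chr6:91286834-91286873: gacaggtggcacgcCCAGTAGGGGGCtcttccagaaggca
Vps13c region, chr9:68015242-68015281: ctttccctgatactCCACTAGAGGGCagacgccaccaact
The last is the member whose nearest protein-coding gene is Runx1, a factor of the mammary and blood lineages. It lay 86716 bp from the nearest GENCODE TSS and 7957 bp from the nearest RefSeq TSS. Capitals mark a match to AP-1 (TGANTCA), the site of Fos and Jun proteins, and 1 to ETS factors (CCGGAAG, here on the minus strand):
Runx1 region, chr16:92948648-92948947: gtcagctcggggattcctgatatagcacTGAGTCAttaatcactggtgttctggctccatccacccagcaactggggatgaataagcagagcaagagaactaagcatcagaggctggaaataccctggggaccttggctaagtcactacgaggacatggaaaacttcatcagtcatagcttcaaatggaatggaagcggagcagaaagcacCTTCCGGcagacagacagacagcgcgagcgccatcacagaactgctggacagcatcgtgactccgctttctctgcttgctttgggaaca

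The far intergenic NMIs were narrow and of moderate CpG content. Their median width was 303 bp (order-statistic 95% interval 284 to 320 bp, n = 896), with quartiles of 186 and 506 bp and a range from 114 to 3382 bp. NMIs that hold a TSS had a median width of 1168 bp (1155 to 1177 bp, n = 9887), and those in introns, at 278 bp (268 to 293 bp, n = 1216), were the nearest to the far intergenic ones. Intergenic NMIs within 10 kb of a TSS lay between, at 391 bp (371 to 419 bp, n = 815). No NMI of any class was narrower than 114 bp, so that the list has a lower limit on width. Of the members, 257 (28.7%) were 200 bp wide or less and 55 (6.14%) were wider than 1000 bp.

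CpG density followed the same order as width. The median was 3.36 CpG per 100 bp in the members (interval 3.25 to 3.47), against 6.85 in NMIs with a TSS (6.80 to 6.91), 3.75 in intergenic NMIs within 10 kb (3.62 to 3.87) and 3.23 in intron NMIs (3.16 to 3.31). A member held a median of 10 CpG, and 1 member of 114 bp held none. The observed/expected ratio of CpG was 0.53 in the members (0.51 to 0.54), 0.76 in NMIs with a TSS and 0.49 in intron NMIs. TpG together with CpA, the products of CpG decay, stood at 1.20 times their expected count. Of the members, 310 (34.6%, exact 95% interval 31.5 to 37.8%) had a ratio of at least 0.6.

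Although poor beside promoter islands, the members stood out from their own surroundings. In 797 of 896 (89.0%, 86.7 to 90.9%) the CpG density was above that of both stretches of the same width 5 kb to the left and right, and in 593 (66.2%) it was at least 2-fold above the denser of them. This was not particular to the members. The share above both stretches was 86.4% in intergenic NMIs within 10 kb, 82.2% in intron NMIs, 88.0% in exon NMIs and 98.4% in NMIs with a TSS. The 2-fold shares were 63.9%, 55.5%, 65.8% and 92.6% in the same order. The median over members of the mean of both stretches was 1.00 CpG per 100 bp. Averaged around their centres, the members reached 4.02 CpG per 100 bp in the densest 100 bp bin and fell to 1.48 at 450 bp to the left and 1.09 at 4950 bp to the right. The repeat share moved the other way, from 8.31% of bases just left of the centre to 32.5% at 4950 bp to the right. Capture on a CXXC domain takes CpG-dense fragments more readily, and its part in the density of the members was not tested.

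**Figure D1:**
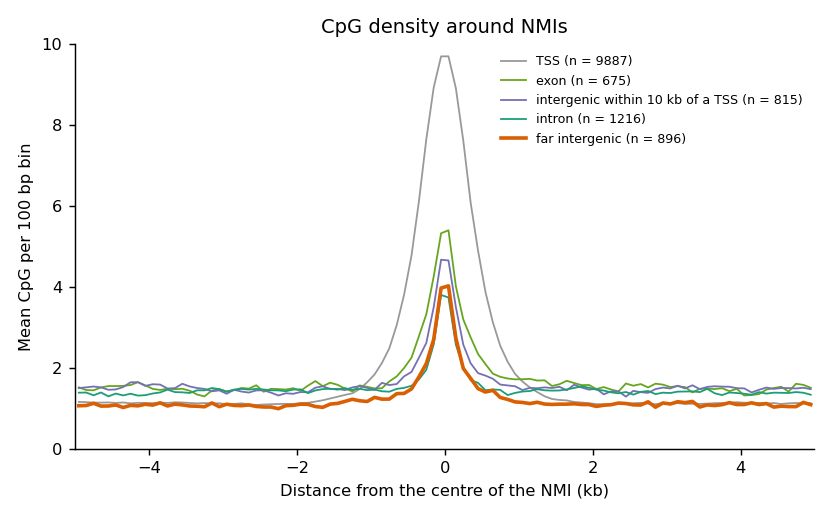
Mean number of CpG per 100 bp bin (vertical axis) against the distance from the NMI centre in kb (horizontal axis), 1 line per class of NMI. The far intergenic line peaks at 4.02, close to that of intron NMIs, while the line of NMIs with a TSS reaches 9.69 and is broader.

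Few members overlapped a CpG island predicted from sequence by strict criteria. Predicted CpG islands (at least 500 bp, 55% GC and a ratio of 0.65, the criteria of Takai and Jones) overlapped 112 members (12.5%, 10.4 to 14.8%), against 9152 of 9887 NMIs with a TSS (92.6%). With the looser criteria of Gardiner-Garden and Frommer the count was 493. By the strict criteria the share of members with a predicted island went up with width. It rose from 1 of 257 members of at most 200 bp (0.389%) to 51 of 175 between 500 and 1000 bp (29.1%) and 34 of 55 above 1000 bp (61.8%). Since an island must itself be 500 bp long, part of this order is set by the definition. CpG density also went up with width, from a median of 3.11 per 100 bp in the narrowest group to 4.69 in the widest. The observed/expected ratio did not follow width step by step: its medians lay between 0.50 and 0.53 in the 4 groups up to 1000 bp and at 0.65 above.

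Members held little repeat sequence. Bases in lower case, which mark repeats in the reference, made up a median of 6.06% of a member, against 40.3% of all far intergenic sequence. The other classes of NMI were alike. Their medians were 6.35% in intergenic NMIs within 10 kb, 5.41% in introns, 4.89% in exons and 5.77% in NMIs with a TSS. Only 14 members (1.56%) were at least 50% repeat, against 0.491% of intergenic NMIs within 10 kb and 0.822% of intron NMIs, and 318 (35.5%) had no repeat base. Reads without a unique position were discarded when the list was made, and the part of this filter in the low repeat share was not tested. No member had another copy in the genome at 90% identity over 80% of its length (0 of 896, upper limit 0.411%), although 1 of the 896 did not match even itself in the masked search and so could not have shown a copy, and 28 (3.13%) had a copy at 80% identity over 50%, led by the member chr2:24252552-24252689 near Il1f5.

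To see which far intergenic sequence carries an NMI, all of it (978 Mb, 38.2% of the sequenced bases) was cut into windows of 300 bp. The share of windows with the centre of a member went up steeply with the number of CpG. Among windows with less than 50% repeat it was 0.00213% with 0 to 3 CpG, 0.838% with 8 to 11, 7.14% with 16 to 20 (56 of 784) and 15.8% above 20 (68 of 431, 12.5 to 19.6%). Most CpG-rich windows, taken as those with at least 8 CpG and less than 50% repeat, thus held no member's centre: 529 of 39328 (1.35%) did. A member counts only in the window of its centre. Other windows inside a wide member count as without one, so these shares understate the sequence that members cover. Among CpG-rich windows with at least 50% repeat the count was 5 of 42074 (0.0119%).

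A match to the CTCF consensus (12 letters with ambiguity, both strands) went with a much higher share at the same CpG content. With 8 to 11 CpG, 21 of 185 windows with a match held a member's centre (11.4%, 7.17 to 16.8%), against 265 of 33952 without (0.781%, 0.690 to 0.880%). With 12 to 15 CpG the counts were 14 of 54 (25.9%, 15 to 39.7%) and 105 of 3922 (2.68%, 2.19 to 3.23%). With 4 to 7 CpG they were 12 of 827 (1.45%) and 295 of 318161 (0.0927%). In each of these CpG classes the intervals with and without a match did not overlap. With 16 to 20 CpG there were 13 windows with a match, of which 4 held a centre, and above 20 CpG there were 4, of which 1 did.

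**Figure D2:**
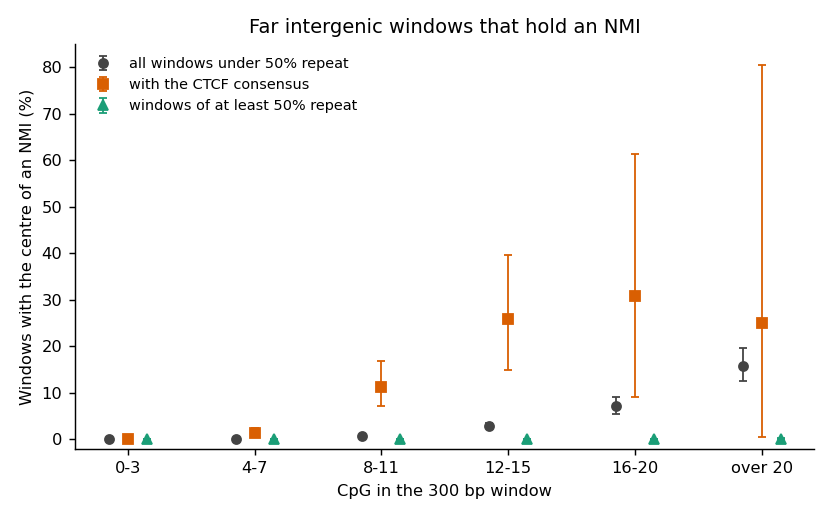
Share of 300 bp far intergenic windows that hold the centre of an NMI in percent (vertical axis) by the number of CpG in the window (horizontal axis), with exact 95% intervals. Dark circles are all windows under 50% repeat, orange squares those of them with the CTCF consensus and green triangles windows of at least 50% repeat; from 4 to 15 CpG the squares stand above the circles, and the triangles stay near 0.

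Seen from the members, 62 of 896 had a CTCF match in their central 300 bp (6.92%, 5.35 to 8.78%), against 0.102% of all far intergenic windows and 0.651% of the CpG-rich ones. That is 68.2 and 10.6 times the share, respectively. Intergenic NMIs within 10 kb of a TSS stood at 6.99%, intron NMIs at 3.70% and NMIs with a TSS at 0.465%, so that the high share was not limited to the far members. Counted over their whole length, 65 members held 66 matches. The matches lay a median of 61 bp from the member's centre, 29 of 66 within 50 bp. Scaled to width, 38 of 66 (57.6%) lay nearer the centre than the midpoint between centre and edge. The inner part thus held only slightly more matches than the outer part. In 50 of 66 a CpG lay in the stretch made of the match and the 8 bases on either side. The share for other stretches of this length was not computed. The consensus itself, as searched, can hold none. Members with a match were of ordinary width (median 294 bp against 306 bp without, central match) and CpG density (3.51 against 3.33 per 100 bp). By width, the share by the central 300 bp was highest between 200 and 300 bp, at 26 of 187 (13.9%), and lowest up to 200 bp, at 7 of 257 (2.72%). The 300 bp around the centre reach outside any NMI narrower than 300 bp. Shares by the central 300 bp, here and for the other motifs, therefore include matches that lie beside such an NMI and not in it.

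AP-1 and the GC box also exceeded the CpG-rich windows, by 2.07 and 1.81 times. AP-1 matched 158 members (17.6%, 15.2 to 20.3%), against 8.90% of all windows and 8.52% of CpG-rich ones, and stood at 24.6% in intron NMIs and 3.25% in those with a TSS. The GC box (GGGCGG, bound by Sp and Klf factors) matched 217 (24.2%, 21.4 to 27.2%), against 1.88% and 13.4%, and 67.2% of NMIs with a TSS. The GC box went with width and density: members with a match had a median width of 458 bp and 4.29 CpG per 100 bp, against 266 bp and 3.14 without. Members with an AP-1 match were of like width (medians of 298 bp with and 304 bp without) and lower in density (3.04 against 3.45 CpG per 100 bp). In CpG-rich windows, 81 of 3350 with an AP-1 match held a centre (2.42%, 1.92 to 3.00%), against 448 of 35978 without (1.25%, 1.13 to 1.37%). At 8 to 11 CpG the AP-1 shares were 1.90% (1.44 to 2.45%) with a match and 0.736% (0.644 to 0.837%) without. They were 4.90% and 2.85% at 12 to 15, 11.1% and 6.90% at 16 to 20, and 35.7% and 15.1% above 20. In these 3 denser classes the intervals overlapped. For the GC box in CpG-rich windows the pooled counts were 164 of 5267 (3.11%, 2.66 to 3.62%) and 365 of 34061 (1.07%, 0.965 to 1.19%). Since the GC box holds a CpG, this pooled gap mixes windows of different CpG content. At 8 to 11 CpG the shares were 1.25% with a GC box and 0.785% without, at 12 to 15 they were 4.90% and 2.50%, and at 16 to 20 they were 12.5% and 4.54%. Above 20 CpG they were 16.3% (12.1 to 21.4%) and 14.9% (9.87 to 21.2%), with overlapping intervals.

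Most other motifs were closer to the CpG-rich windows or below them. ETS matched 4.24% of members and 3.88% of CpG-rich windows, the E-box (CACGTG) 10.0% and 9.89%, and the ZFP57 site (TGCCGC) 10.2% and 9.39%. Each of these holds a CpG and was several times rarer in all windows, at 0.65%, 2.41% and 1.30%. The B box matched 6 members (0.670%, 0.246 to 1.45%), against 0.384% of CpG-rich windows, a ratio of 1.74 that rests on these 6. NRF1 (GCGCATGCG) matched 7 members (0.781% against 0.941%), the CRE (TGACGTCA) 6 (0.670% against 0.722%), YY1 (AAGATGGCG) 4 (0.446% against 0.814%) and RFX (GTTGCCATG) 4 (0.446% against 0.392%). TEAD (GGAATG) stood at 19.5% against 16.3% of CpG-rich windows and RUNX (TGTGGT) at 18.6% in both. Motifs without a CpG that were rarer in members than in CpG-rich windows included the TATA box (TATAAA), at 7.48% against 13.4%. The site of GATA factors (AGATAA) stood at 10.8% against 13.6%. For the CCAAT box the shares were 27.7% and 31%. A run of TG (TGTGTGTGT) stood at 4.02% against 6.81%. A match is only these letters in the window and does not show that a factor bound.

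**Figure D3:**
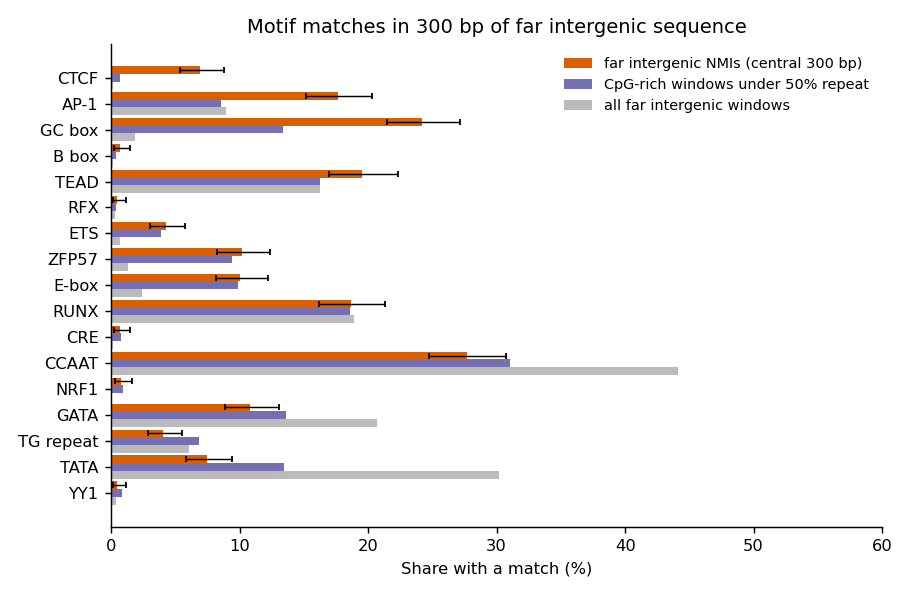
Share of sequences with a motif match in percent (horizontal axis) for 17 motifs (vertical axis), in the 300 bp around the centre of far intergenic NMIs (orange, exact 95% intervals), in CpG-rich windows (purple) and in all far intergenic windows (grey). CTCF at 6.92%, AP-1 at 17.6% and the GC box at 24.2% lead the CpG-rich windows by the widest ratios.

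Genes for tRNA lay in few members, among them some of the widest. A RefSeq tRNA gene overlapped 16 members (1.79%, 1.02 to 2.88%), which held 24 such genes. The share was higher in intergenic NMIs within 10 kb of a TSS, at 4.79%. It was 0.411% in intron NMIs, 0.593% in exon NMIs and 0.425% in NMIs with a TSS. The 16 members had a median width of 1067 bp (640 to 1384 bp), a density of 4.70 CpG per 100 bp and an observed/expected ratio of 0.73 (0.68 to 0.80). The widest held glutamate, glycine, histidine and lysine genes. The third widest, chr7:98814850-98817239 upstream of Wnt11, held 2 proline genes. The member chr1:171102022-171103452 held aspartate, glycine and glutamate genes. On chromosome 13, 4 members between 21160325 and 21234698 held 5 tRNA genes (glutamate, phenylalanine, leucine and 2 alanine genes), and the nearest protein-coding genes of this run are Olfr1368 and Trim27.

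Most tRNA genes in far intergenic sequence had no NMI. Of 403 RefSeq tRNA genes, 165 (40.9%) lay in an NMI of any class, and of the 116 in far intergenic sequence 27 did (23.3%, 15.9 to 32.0%). The 27 had a median of 4.67 CpG per 100 bp in the 300 bp around them, and the other 89 had 1.67. Of these far genes, none with fewer than 2 CpG per 100 bp lay in an NMI (0 of 48, upper limit 7.40%), against 2 of 17 between 2 and 3, 5 of 19 between 3 and 4 and 20 of 32 from 4 upwards (62.5%, 43.7 to 78.9%). Of the 48, 34 are cysteine genes of a single region of chromosome 6. Without them 27 of 82 far genes lay in an NMI (32.9%, 22.9 to 44.2%), and below 2 CpG per 100 bp 0 of 14 did (upper limit 23.2%). The rise with CpG describes far genes, which reached at most 7 CpG per 100 bp. Outside far intergenic sequence, some of the densest genes, such as n-TLcag6 on chromosome 1 (10.7), lay in no NMI. Reads without a unique position were discarded, and the part of this filter at repeated tRNA genes was not tested. A looser tRNA-like pattern, a T loop with its stem followed by an acceptor stem, was found in 45 members (5.02%), and in the central 300 bp in 2.90%. In intergenic NMIs within 10 kb of a TSS these shares were 10.1% and 5.28%, in intron NMIs 3.87% and 3.04%. In exon NMIs they were 3.85% and 1.63%, and in NMIs with a TSS 12.1% and 1.84%. The pattern is not specific to tRNA genes, and only RefSeq genes are counted above.

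A second annotation placed transcript starts in some members. RefSeq, whose gene models differ from GENCODE, put a gene span over 191 members (21.3%) and a TSS within 47 (5.25%), and 605 (67.5%) had neither a RefSeq gene nor a RefSeq TSS within 10 kb. Apart from members with a tRNA gene, 32 members held a RefSeq TSS. They had a median width of 709 bp (442 to 1027 bp), 4.88 CpG per 100 bp and a predicted island in 15 of 32. Some are upstream starts of known genes. The member chr9:67632360-67634602 (2243 bp, 7.27 CpG per 100 bp) held a start of Tln2, which encodes the adhesion protein talin 2. Likewise chr7:143977916-143979487 (1572 bp, 7.57) held a start of Shank2, which encodes a scaffold of synapses. The member chr9:32032038-32033176 (1139 bp, 14.3) held a start of Arhgap32. Most of the others were predicted genes without a given name, such as Gm32700 in the second widest member, chr1:86440013-86443338 (3326 bp, 4.90).

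**Figure D4:**
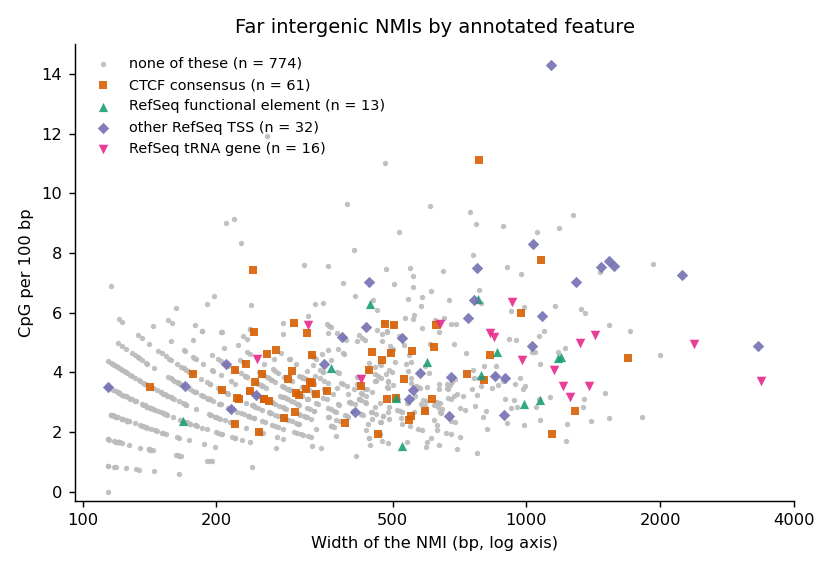
CpG per 100 bp (vertical axis) against width in bp on a log axis (horizontal axis) for each of the 896 far intergenic NMIs, coloured by the first feature found in it. Members with a tRNA gene (16) or another RefSeq TSS (32) lie mostly to the right, and those with the CTCF consensus (61) spread through the middle of the cloud; the slanting rows at the left are small whole numbers of CpG.

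RefSeq also lists curated functional elements, and 13 members (1.45%) overlapped one, 12 of them an enhancer. The share was alike in intergenic NMIs within 10 kb of a TSS (1.60%) and intron NMIs (1.40%). In exon NMIs it was 0.444% and in NMIs with a TSS 0.415%. The values below are those of the 13 members. Their median width was 776 bp (445 to 1074 bp). The nearest protein-coding genes were Sorl1 (member of 1196 bp), Wee1 (1178 bp), Bahcc1 (1074 bp), Spag9 (986 bp), Fos (857 bp), D5Ertd579e (792 bp), Efcab1 (776 bp), Irf2bpl (597 bp), Tanc1 (525 bp), Irf2bp2 (508 bp), Wnt10a (445 bp), Runx3 (362 bp) and Klf3 (168 bp). The element at the Runx3 member is not listed as an enhancer. The remaining 774 members had no tRNA gene, other RefSeq TSS or functional element, and no CTCF match within their own length. A match beside a narrow member, counted above in the central 300 bp, is not counted here. The 774 had a median width of 283 bp (264 to 302 bp), a density of 3.26 CpG per 100 bp and a share with a predicted island of 10.1%. Most far intergenic NMIs thus carried none of these features.

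Several of the widest members overlapped no gene of either annotation. The member chr6:145340013-145342017 (2005 bp, 4.59 CpG per 100 bp) lay 23405 bp from the nearest GENCODE TSS and 6373 bp from the nearest RefSeq TSS. The member chrX:12005651-12007579 (1929 bp, 7.62) lay downstream of Bcor, which encodes a corepressor, with 5.13 CpG per 100 bp in its left flank and 0.674 in its right. The member chr15:81522131-81523841 (1711 bp, 5.38) lay downstream of Rbx1, a ubiquitin ligase subunit, and chr6:91285466-91287159 (1694 bp, 4.49) downstream of Fbln2, which encodes a matrix protein. The member chr12:55464143-55465966 (1824 bp) was the exception among the 10 widest in CpG content, with 2.52 CpG per 100 bp, a ratio of 0.39 and no predicted island; it lay 25844 bp from the nearest GENCODE TSS and 23444 bp downstream of Nfkbia, which encodes an inhibitor of NF-κB.

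Tandem repeats of a CpG unit lay in some members of high ratio. A run of at least 5 copies of a unit of 2 to 12 bp with a CpG occurred in 21 members (2.34%, 1.46 to 3.56%), against 3.10% of CpG-rich windows under 50% repeat. These shares are not of like sequences. Members were searched over their whole length, and the windows are 300 bp and were chosen for at least 8 CpG. The higher share in the windows therefore does not settle whether members are richer or poorer in such runs. The longest was 130 bp, 13 copies of a 10 bp unit, in the member chr17:55931954-55932477 near Zfp119b. Among members of at least 300 bp, those near Ghr and Itga8, first and second by ratio (1.09 and 1.08), held such arrays of 70 and 18 bp, at 38.5% and 41.9% GC. This search was chosen after the sequences had been seen. The third, chr13:21200308-21200947 (1.08), overlapped the leucine tRNA gene by its first base, and the fourth, chr6:128760184-128760724 near Klrb1c (1.05, 6.47 CpG per 100 bp), had neither.

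Members became rarer with distance from genes. Between 10 and 20 kb of the nearest TSS there were 363 members, or 1.59 per Mb, and the density went down to 1.08 between 20 and 50 kb (368 members), 0.533 between 50 and 100 kb (120), 0.270 between 100 and 200 kb (36) and 0.203 beyond (9). CpG-rich windows also thinned out, from 61.1 to 8.66 per Mb, and the share of them with a member's centre went down from 1.66% to 0.442% between 100 and 200 kb and 0.522% beyond. Median width went down from 334 to 194 and 141 bp, and the CTCF share from 9.37% to 5.00% between 50 and 100 kb and to 0 of 45 members beyond 100 kb (upper limit 7.87%). At the limit itself, the 5 members just inside lay 10053 to 10130 bp from a TSS and were 143 to 464 bp wide with 1.40 to 5.44 CpG per 100 bp, and the 5 intergenic NMIs just outside lay 9919 to 9973 bp away and were 159 to 681 bp wide with 2.79 to 3.50. The 5 farthest members, near Tox3, Rbfox1, Vstm2a, Cbln4 and Grin2a, lay 236268 to 333374 bp from the nearest GENCODE TSS, were 136 to 408 bp wide and held 2 to 14 CpG. To RefSeq TSSs the member near Cbln4 lay only 10050 bp and that near Rbfox1 118374 bp.

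Members were spaced widely. The nearest NMI of any class was a median of 40171 bp away, and 133 members (14.8%) had another NMI within 10 kb, against 48.6% of intergenic NMIs within 10 kb of a TSS, 34.3% of intron NMIs and 23.2% of those with a TSS. The rule itself lowers this share, since it keeps members away from TSSs. Runs of at least 3 members with gaps of at most 50 kb numbered 19 and held 63 members, and 7 of the runs lay on chromosome 5. The longest held 5 members over 87.3 kb, chr5:118294094-118381385, with widths of 212, 562, 389, 342 and 1027 bp. A run of 3 followed at chr5:118459008-118514806, upstream of Med13l, a subunit of the Mediator complex.

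The nearest genes of the other runs were of many kinds. The run of 4 at chr5:33450974-33513875 was upstream of the homeobox gene Nkx1-1 (115 to 287 bp), and that of 4 at chr5:35416943-35471564 had Hmx1, also a homeobox gene, or Cpz as its nearest gene. The tightest, chr5:147221594-147227803, put 3 members of 325 to 895 bp into 6.21 kb, downstream of Gsx1. At Fos, which encodes a subunit of AP-1, 1 member lay 17955 bp upstream and 2 lay 8284 and 19669 bp downstream; the widest of them was 1536 bp. At Krt8, a keratin of simple and luminal epithelium, 3 members lay 8320 to 18901 bp downstream, all within the RefSeq span of another keratin gene, Krt78. Others lay near Socs3, Bahcc1, Jade2, Nfe2l3, Enpp7, Micall2, Adgrd1, Tmem44, Fam19a5, 1700010I14Rik and Tex44.

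The 896 members had 756 different nearest protein-coding genes, and 652 of these had 1 member. A developmental transcription factor was nearest to 46 members (5.13%, 3.78 to 6.79%), against 3.09% of far intergenic windows and 5.84% of the CpG-rich ones, so that the share was above that of all sequence and not above that of CpG-rich sequence. Homeobox genes outside the Hox clusters made up 29 of the 46 (3.24%, 2.18 to 4.62%, against 1.42% and 2.97%), at 22 genes that included Meis2, Dlx3, Lbx1, Uncx and Emx2. T-box genes had 5 (0.558%, against 0.179% of windows and 0.564% of CpG-rich ones), forkhead genes 5 (against 0.335% and 0.506%) and Klf and Sp genes 4 (0.446%, against 0.277% and 0.402%). Hox, Pax and sine oculis homeobox genes had 1 each (0.112%, against 0.0788%, 0.252% and 0.130% of CpG-rich windows). Sox, Pou and Gata genes had 0 (upper limit 0.411% each), against 0.664%, 0.15% and 0.125% of CpG-rich windows. Solute carriers had 22 (2.46%, against 1.48% and 1.92%), and zinc-finger genes 12 (1.34%, against 1.20% and 2.32%). Olfactory receptors had 3 (0.335%, against 0.636% and 0.254%), collagens 2 (0.223%, against 0.211% and 0.239%) and core histones 1 (0.112%, against 0.312% and 0.196%). Vomeronasal receptors had 0 (against 0.655% and 0.257%), as did clustered protocadherins (against 0.00472% and 0.00509%).

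Lists tied to the tissue gave small numbers. Factors of the mammary lineage were nearest to 6 members (0.670%, 0.246 to 1.45%), against 0.587% of windows and 1.51% of CpG-rich ones. The widest was 1073 bp, chr5:119748568-119749640, and lay 63844 bp downstream of Tbx3, which is needed for the mammary placode. Nearest to Cebpb, a factor of the secretory epithelium, were 2 members of 640 and 489 bp, each with an AP-1 match. They lay 74672 and 71005 bp from it. The member of 410 bp nearest to Runx1, 122444 bp away, had 2 AP-1 matches and 1 ETS match. Those nearest to Tfap2c and Bcl11a were 283 and 114 bp wide and lay 85123 and 203080 bp away. The members nearest to Tbx3, Tfap2c and Bcl11a had no AP-1 match. Imprinted genes were nearest to 1 member (0.112%, against 0.232% of windows and 0.341% of CpG-rich ones), chr12:110207007-110207250 (244 bp, 2.46 CpG per 100 bp), upstream of Dio3, which encodes a thyroid hormone deiodinase.

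Chromosomes differed widely. Per Mb of far intergenic sequence the members numbered 2.73 on chromosome 11 (104 members), 1.95 on chromosome 15 (78), 1.70 on chromosome 17 (54) and 1.62 on chromosome 5 (89), and 0.386 on chromosome 14 (18), 0.242 on chromosome 18 (9) and 0.105 on X (9). Set against NMIs with a TSS, which follow gene number, the order was led by chromosome 15 with 18.4 members per 100, followed by chromosome 1 with 14.2, chromosome 5 with 13.3 and chromosome 11 with 12.3, and chromosomes 18 and X had 3.57 and 3.64. Within CpG-rich windows the share with a member's centre was 2.93% on chromosome 11, 2.33% on chromosome 15, 0.598% on chromosome 18 and 0.914% on X.

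Intron NMIs per 100 NMIs with a TSS were also highest on chromosome 15 (22.6) and lowest on X (1.62). Chromosome 1, second for the members, stood at 12.8. Both values are divided by the same number of NMIs with a TSS. The median width of NMIs with a TSS was 904 bp on X and 1062 bp on chromosome 18, the lowest of the 20, and 1257 bp on chromosome 15. These chromosomes share 1 library, and whether they differ in copy number or read depth was not tested. The 9 members on X were wide (median 620 bp) and dense (7.44 CpG per 100 bp), and those on chromosome 18 had 502 bp and 5.52. In bins of 5 Mb, 208 of 537 had no member, and 13 bins with at least 8 held 133 members. The fullest, on chromosome 15 from 85 to 90 Mb, held 15, and chromosome 17 from 45 to 50 Mb held 14.

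**Figure D5:**
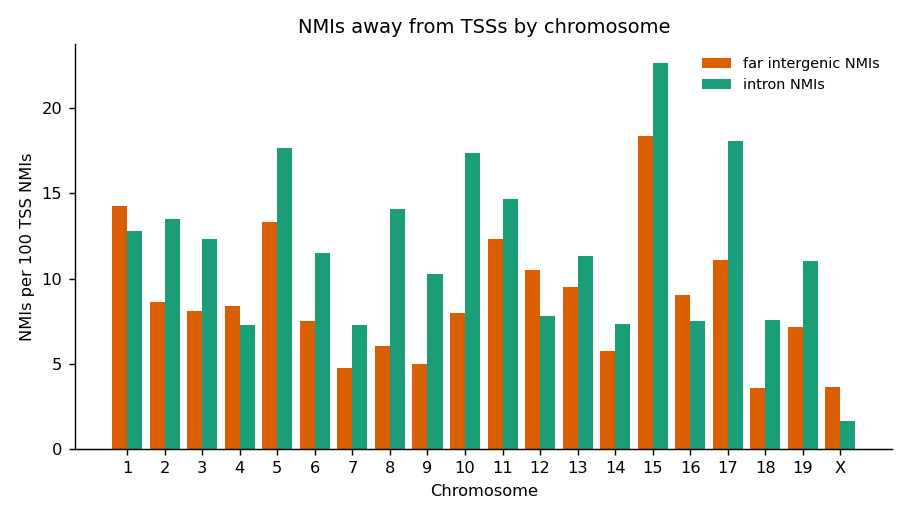
Far intergenic NMIs (orange) and intron NMIs (green) per 100 NMIs with a TSS (vertical axis) on each chromosome (horizontal axis). Chromosome 15 is highest for both, at 18.4 and 22.6, and X is low for both, at 3.64 and 1.62.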

How the data were processed

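The BioCAP library of untreated C127 cells was used here as the list of NMIs that the authors deposited, whose values are positions (chromosome, start and end) with no score. Per the methods and the submitters' processing notes, the authors used Bowtie2 for alignment (mm10), kept unique reads, removed duplicates with SAMtools and called peaks with MACS2. Tool versions were not given in the sources used here. The same holds for whether the input served as control. The other libraries of the 9 samples were not used here.

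From these positions, NMIs were classed against GENCODE M21 spans and transcript 5′ ends, each NMI taking the first of TSS, exon, intron and intergenic. Sequence, repeats (lower case) and RefSeq genes came from RefSeq's GRCm38 assembly, the same build as mm10. CpG, islands, flanks and motifs (both strands, 17 motifs, 8 with a CpG in their letters) were computed with Python 3.11.15, numpy 2.4.6, pandas 2.3.3 and scipy 1.17.1, and copies with blastn 2.17.0 (word size 14, low-complexity masking). The CTCF consensus has 12 letters. Shares carry exact Clopper-Pearson 95% intervals and medians order-statistic 95% intervals. Counting steps were tested on simulated data. No test was run, since 1 library has no replicates.

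The members and the gene lists were chosen with earlier results of these data known. Members named were the widest, those of at least 300 bp with the highest observed/expected ratio, the farthest from a TSS, those just inside and outside the limit, those with most copies, the widest with a tRNA-like sequence, and those nearest to mammary lineage or imprinted genes. The groups by RefSeq feature, the runs and the tandem arrays, and the members named for them, were chosen after the values were seen. Alternatives were other distances, protein-coding genes alone, a width minimum, other island criteria, flanks and windows. The CpG-rich background, the RefSeq tRNA overlap and the tRNA count without the chromosome 6 cysteine genes were added after the data were seen. The sequence of the glutamate tRNA gene in the widest member is not reported here.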

Additional observations from a re-analysis of the deposited data

How the results depend on the processing

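The number of far intergenic NMIs was 533 at a limit of 20 kb, 1621 with protein-coding genes alone and 453 at a width of at least 300 bp. Median width was then 267, 350 and 502 bp, and 324 bp at a limit of 5 kb. CpG density was 3.47 per 100 bp at 5 kb, 3.50 with protein-coding genes, 3.61 at 300 bp or more and 3.00 in the central 300 bp. The share with a predicted island was 14.9%, 19.4% and 23.6% in the first 3 of these settings, and 55% by the Gardiner-Garden and Frommer criteria. The share at least 50% repeat was 0.442% at 300 bp or more, and 0% were at least 90% repeat (upper limit 0.411%). Members above both flanks were 86.5% at 20 kb. Another NMI lay within 5 kb of 8.93% and within 50 kb of 57.8%. Further copies at 80% identity over 50% occurred for 3.13%. A tRNA-like sequence was found in 7.92% with 100 bp added and a RefSeq tRNA gene in 1.79%. The AP-1 ratio of members to windows was 1.67 against windows under 50% repeat. Against CpG-rich windows, the ratio was 1.81 for the GC box and 10.6 for CTCF, and it fell below 1 for NRF1 (0.830, from 27.8), CRE (0.927, from 4.93) and YY1 (0.549, from 1.16, and 4.36 against windows under 50% repeat). Of the alternative values computed, 36 stayed within the bounds set around the main value, 34 moved beyond them and 2 reversed. For medians, shares and ratios the bounds were the interval of the main value. For the number of NMIs they were a fixed fold range, so that 1238 at a limit of 5 kb, against 896, counted as within. Different settings choose different members, and the cause of each shift was not tested. No paired analysis was possible because the list comes from 1 library. The depth of the library is unknown, so sequence outside the list cannot be called methylated.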
